A study of Mus musculus with 8 samples.

Results

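A set of 10 genes through which a macrophage signals to lymphocytes or is restrained itself was followed in RNA sequencing of macrophages from mouse pancreatic islets. They are Cd80, Cd86, Icosl, Cd274, Pdcd1lg2, Cd40, Cd83, Cd48, Havcr2 and Cd200r1. They were taken by name from the symbol column of a table of 48440 genes, in which each of the 10 had 1 row. The cells were sorted as CD11b and F4/80 double-positive cells from islets of male wild-type C57BL/6J mice, aged 16 weeks at collection. One group of mice was fed chow (8% fat, 21% protein and 71% carbohydrate, 10.88 kJ/g) and the other a high-fat diet, abbreviated HFD (45% fat, 20% protein and 35% carbohydrate, 19.67 kJ/g), in both cases for 8 weeks from the age of 8 weeks. Each diet had 4 libraries, numbered 1 to 4 for chow and 5 to 8 for HFD, and each library pooled extracts from 2 mice, so the spread between libraries is a spread between pools and not between single animals. All libraries were amplified from 500 pg of RNA.

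T cells that recognise antigen on a macrophage also read a second set of signals from its surface. The B7 family supplies the best known of these: CD80 and CD86 bind the activating receptor CD28 and its inhibitory relative CTLA-4, ICOSL binds ICOS, and PD-L1 (encoded by Cd274) and PD-L2 (encoded by Pdcd1lg2) bind the inhibitory receptor PD-1. CD40 receives help from T cells through CD40 ligand and raises the other signals in turn, and macrophages carry brakes of their own, among them TIM-3 (encoded by Havcr2) and the receptor for CD200. Resident islet macrophages present antigen to T cells, which is why these molecules have been studied in islet autoimmunity.

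The 2 genes for PD-1 ligands are neighbours on chromosome 19, 22823 bases apart on GRCm38 and on the same strand. Their levels in these libraries were nevertheless far apart, whereas Havcr2 had the highest level of all members. The stretches upstream of the RefSeq starts of these 3 genes (build GRCm38.p6, plus strand in each case) are printed 5′ to 3′ because they lie beside the members with the widest differences in level. The stretch of Cd274 is chr19:29367318-29367437, that of Pdcd1lg2 chr19:29410669-29410918 and that of Havcr2 chr11:46454681-46454930. Capitals mark matches to any of 5 motifs searched on both strands.
Cd274: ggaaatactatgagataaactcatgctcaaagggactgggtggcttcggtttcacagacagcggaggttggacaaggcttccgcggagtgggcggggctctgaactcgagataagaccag
Pdcd1lg2: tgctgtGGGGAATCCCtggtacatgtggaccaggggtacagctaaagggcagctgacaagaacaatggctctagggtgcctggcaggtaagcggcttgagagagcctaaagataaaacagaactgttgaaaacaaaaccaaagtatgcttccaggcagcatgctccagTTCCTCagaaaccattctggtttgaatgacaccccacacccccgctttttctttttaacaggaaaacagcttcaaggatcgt
Havcr2: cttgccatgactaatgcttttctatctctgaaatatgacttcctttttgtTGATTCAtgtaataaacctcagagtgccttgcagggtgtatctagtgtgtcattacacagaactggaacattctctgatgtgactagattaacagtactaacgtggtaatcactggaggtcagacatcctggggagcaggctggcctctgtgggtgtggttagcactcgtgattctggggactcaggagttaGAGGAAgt
The motifs were those of NF-kB, the interferon-stimulated response element (GAAA, any 2 bases, GAAA), the interferon-gamma activated sequence (TTCNNNGAA), AP-1 (TGANTCA) and the core of PU.1 (GAGGAA). Counting back from -1, the base before the start, Pdcd1lg2 held an NF-kB match from -244 to -235 and a PU.1 core from -82 to -77. Havcr2 held an AP-1 match from -200 to -194 and a PU.1 core from -8 to -3. The 250 bases upstream of Cd274 held no match to these letters, and no matches overlapped. Of 32851 promoters of the same length in RefSeq, 7.25% held the NF-kB motif, 2.98% the response element, 7.02% the activated sequence, 6.75% AP-1 and 23.3% the PU.1 core. A match is a description of the letters only. Of the 10 members 6 had an entry in the promoter table.

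Library totals ranged from 4288665 to 6391247 counts. Levels are given in CPM, the usual depth-scaled count, after scaling between libraries with the TMM method. The upper limit for a gene with 0 counts in a library, taken as 3 counts, lay between 0.468 and 0.708 CPM and covers counting error only. The 12 macrophage markers were all detected, with a summed level of 6341 to 8478 CPM in chow and 6451 to 7532 CPM in HFD, and the F4/80 gene Adgre1 averaged 506 ± 78.4 CPM (chow) and 419 ± 74.1 CPM (HFD; SD, n = 4). For Itgam, Csf1r and Cd68 the chow means were 312 ± 71.3, 916 ± 99.2 and 366 ± 90.7 CPM, and the HFD means 337 ± 98.3, 863 ± 117 and 354 ± 45.9 CPM. Libraries differed in RNA of other islet and pancreas cells: the summed acinar cell markers ran from 0.225 to 1985 CPM over the 8 libraries. The stellate cell and fibroblast sum (10 markers) was 24.0 to 133 CPM in chow and 106 to 424 CPM in HFD, but different genes carried it. In chow replicates 2 to 4 it was mostly the pericyte gene Rgs5, at 78.8, 128 and 85.4 CPM, and so it was in HFD replicate 8, at 97.0 CPM. The collagen gene Col3a1 was between 0 and 1.89 CPM in the chow libraries and at 144, 47.4, 61.5 and 0.201 CPM in HFD replicates 5 to 8, and Col1a1, Dcn and Lum were at 0 in all 4 chow libraries and present in HFD replicates 5 to 7. Of the 8 T cell markers, Cd3e, Cd3g, Lck and Themis were at 0 in all 8 libraries and Cd3d, Trac and Cd8a at 0 in 7, while Cd4 was between 9.84 and 48.3 CPM. In such bulk samples, fewer cells of a type and less RNA per cell cannot be told apart.

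Per kilobase of exon, the scale on which levels of different genes can be set side by side, the members covered a wide span. Havcr2 was highest at 208 CPM per kb (range 146 to 325 over the 8 libraries), and Cd48 came next at 75.5 (58.2 to 106), with both places in the order kept in 8 of 8 libraries. Cd86, Icosl and Cd83 followed at 32.0, 26.6 and 25.4 CPM per kb. These 3 did not differ beyond their spread, since Cd86 was above Icosl in 6 of 8 libraries and Icosl above Cd83 in 4 of 8. Cd274 was at 13.3 CPM per kb with a range of 1.17 to 32.2 and lay below Cd83 in 7 of 8 libraries. Cd40 was at 2.82 CPM per kb, and Cd200r1 (1.37), Cd80 (0.842) and Pdcd1lg2 (0.0996) were at the bottom, where no neighbours differed beyond their spread. The TIM-3 gene and the SLAM-family gene Cd48 thus led the order, followed by a group of Cd86, Icosl and Cd83. With the longest transcript in place of all exons the order was the same for all 10, but Cd48 was then above Cd86 in 7 of 8 libraries. Cd86 was then above Icosl in 4 of 8, and Icosl above Cd83 in 7 of 8, at 43.7 against 26.3 CPM per kb. The ranges of these neighbours still overlapped, but how close Cd83 lay to Icosl depended on the length used.

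**Figure D1:**
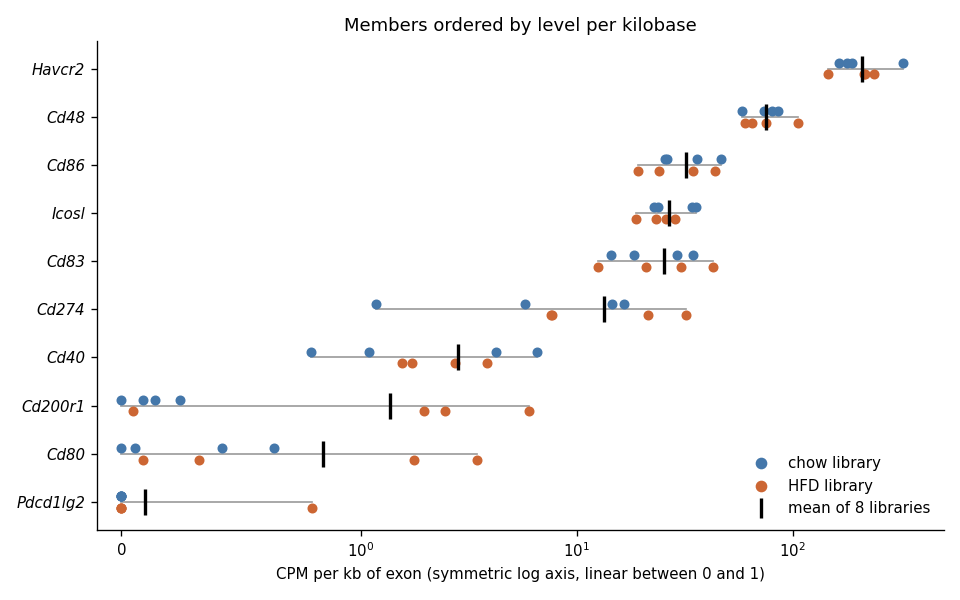
Level of each member in CPM per kilobase of exon, on a symmetric log axis that is linear between 0 and 1. Each point is a library (blue chow, orange HFD), the grey line the range over 8 libraries and the black tick their mean; Havcr2 lies above every other member at 146 to 325, and Pdcd1lg2 is at 0 in 7 libraries.

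The chow and HFD libraries were then compared member by member. No member passed the threshold of an adjusted p of 0.05: edgeR's quasi-likelihood test called 0 of the 7 members that passed the expression filter, none of these 7 had an unadjusted p under 0.05, and DESeq2 and limma-voom also called 0. The background was 0 of 10129 genes called by edgeR (0%), with 5.35% at an unadjusted p under 0.05. DESeq2 called 0.297% and limma-voom 0.00987% of the genes they tested. Of the 7 tested members 3 were higher and 4 lower in HFD, with a median log2 fold change (HFD over chow) of -0.07 against -0.02 over all genes tested. The groups overlapped for each of the 10 members, and 3.39% of all tested genes had groups that did not overlap. The 3 members that the filter removed, Cd80, Pdcd1lg2 and Cd200r1, had too few counts in too many libraries. Without the filter edgeR also called 0 of the 10 members, where 0.25% of 17969 genes were called, and so did DESeq2, where 0.765% were called.

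**Figure D2:**
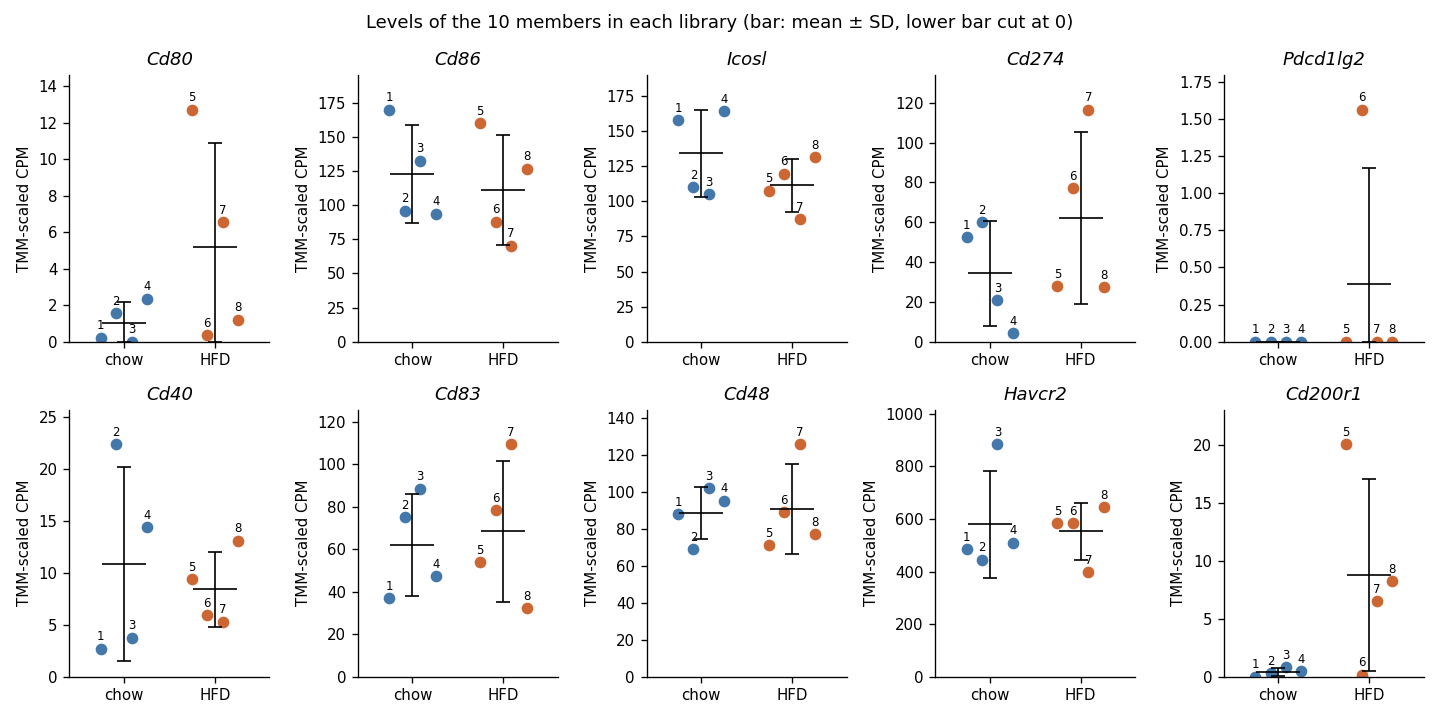
TMM-scaled CPM of the 10 members in each library, numbered by replicate, with mean ± SD of the 4 libraries of each diet. Points of the 2 diets overlap in all 10 panels; for Cd200r1, 3 HFD libraries at 6.53 to 20.1 CPM lie above every chow library, while HFD replicate 6 does not.

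Cd86, the gene for the main CD28 ligand on resting macrophages, was at 170, 95.9, 132 and 93.7 CPM in the chow libraries (replicates 1 to 4) against 160, 87.9, 70.4 and 127 CPM in the HFD libraries (replicates 5 to 8). Both diets had high and low libraries, and only HFD replicates 6 and 7 lay below the chow range. Its means were 123 ± 36.0 and 111 ± 40.1 CPM (SD, n = 4), which gave a log2 difference of -0.15 (SE 0.33, edgeR adjusted p = 0.99), with 2 SE either side spanning -0.80 to 0.51. Cd86 lies on chromosome 16 from 36603869 to 36666081 (GRCm38). Its direction was not stable, as it turned to 0.045 without chow replicate 1 and to 0.02 without HFD replicate 7.

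Cd80, the gene for the CD28 and CTLA-4 ligand that activated antigen-presenting cells induce, was at 0.225, 1.56, 0 and 2.36 CPM in the chow libraries against 12.7, 0.347, 6.53 and 1.21 CPM in the HFD libraries. HFD replicates 5 and 7 lay above every chow library, and the other 2 HFD libraries lay within the chow range. In counts this was 21 reads over the chow libraries against 103 over the HFD libraries, of which 64 were in HFD replicate 5. Fitted without the filter, the log2 fold change was 2.30 (SE 1.94, adjusted p = 0.65), and 1.35 (SE 2.28) without HFD replicate 5. The stellate cell and fibroblast sum was also highest in HFD replicate 5, at 424 CPM, and with that sum as a covariate the log2 fold change of Cd80 was -0.07 (SE 2.16). The part of that RNA in the Cd80 counts was not tested. The log2 ratio of Cd86 to Cd80 per kilobase, with 0.5 counts added, was between 5.26 and 10.3 in the chow libraries and between 3.43 and 7.68 in the HFD libraries, so Cd86 transcripts outnumbered Cd80 transcripts in each of the 8 libraries.

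Icosl, which encodes the ligand of the T cell receptor ICOS, was at 158, 110, 105 and 164 CPM in the chow libraries against 108, 120, 87.3 and 131 CPM in the HFD libraries. Chow replicates 1 and 4 were the highest of the 8 and HFD replicate 7 the lowest, and the rest overlapped. The means were 134 ± 31.1 and 111 ± 18.8 CPM (SD, n = 4), which gave a log2 difference of -0.27 (SE 0.29, edgeR adjusted p = 0.99). Of the 10129 genes tested, 9.67% had a coefficient of biological variation at or below that of Icosl, 32.9%. For Cd86, at 36.0%, this was 13.7% of genes. The coefficient is edgeR's estimate, which is drawn toward that of other genes of like level, and not the raw spread of the libraries. The median gene was at 73.6%, a value that also reflects how many genes have few counts.

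Cd274, the PD-L1 gene (chromosome 19, 29367455 to 29388095), was the most uneven of the well detected ligands. It was at 52.6, 60.1, 20.7 and 4.25 CPM in the chow libraries against 27.8, 77.1, 117 and 27.5 CPM in the HFD libraries. HFD replicates 6 and 7 were above every chow library, chow replicates 3 and 4 were below every HFD library, and the others interleaved. The means were 34.4 ± 26.4 and 62.2 ± 43.1 CPM (SD, n = 4). This was the largest log2 fold change of the tested members, 0.85 (SE 0.66, edgeR adjusted p = 0.99), with 2 SE either side spanning -0.46 to 2.16. Either of 2 libraries moved it by more than 1.5 times: it was 0.36 (SE 0.72) without HFD replicate 7 and 0.48 (SE 0.59) without chow replicate 4. It was 1.48 (SE 0.74) with limma-voom and quality weights, and over its 18 alternatives the adjusted p ran from 0.51 to 0.998. Its coefficient of biological variation was 64.7%, at or above that of 42.5% of tested genes. An antisense gene model overlaps exons of Cd274, and no strand is stated for the counts, so reads of the 2 could not be told apart.

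Pdcd1lg2, the PD-L2 gene, had 0 counts in 7 libraries, all 4 chow libraries among them, and 9 counts (1.56 CPM) in HFD replicate 6. No fold is given, since the other 7 libraries were at the limit set by 0 counts. The PD-1 ligand counts of these libraries were thus almost entirely Cd274 at this depth.

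Among the 5 B7-family genes as a set, compared per kilobase within each library and so free of scaling between libraries, Cd86 made up 39.1% to 56.0% in chow and 26.7% to 55.9% in HFD. Icosl made up 35.2% to 56.5% and 26.2% to 40.1%. Cd274 was the component that varied most, with 1.86% in chow replicate 4, 24.8% in chow replicate 2 and 44.7% in HFD replicate 7. It passed Cd86 in HFD replicate 7 alone. Cd80 reached 4.40% at most, in HFD replicate 5.

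**Figure D3:**
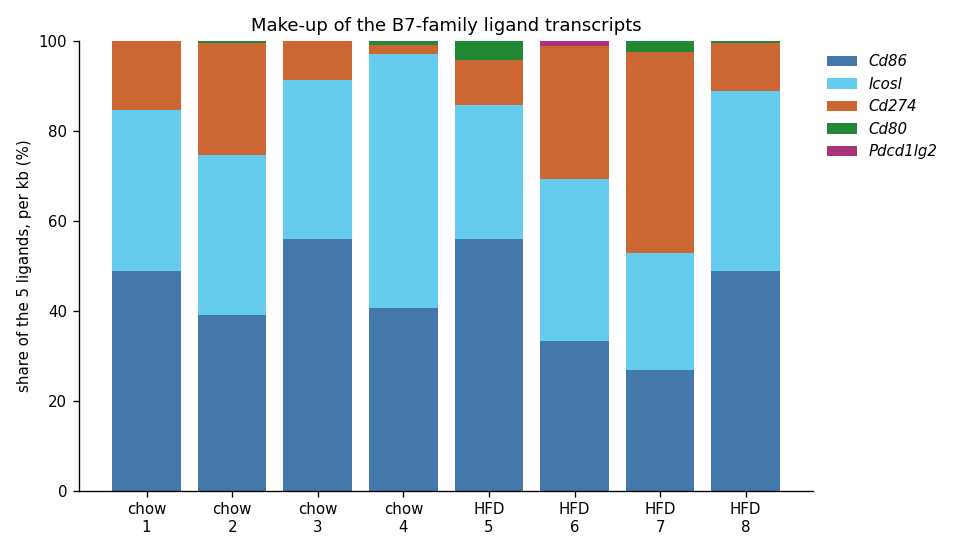
Share of each of 5 B7-family ligand transcripts in their sum, in CPM per kilobase of exon, for each library (bars add to 100%). Cd274 takes 44.7% of the bar in HFD replicate 7 and 1.86% in chow replicate 4, while Pdcd1lg2 shows in HFD replicate 6 alone.

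Cd40, the receptor for CD40 ligand, was at 2.70, 22.3, 3.73 and 14.4 CPM in the chow libraries against 9.34, 5.90, 5.27 and 13.1 CPM in the HFD libraries. All 4 HFD libraries fell inside the chow range, in which replicates 2 and 4 were high and 1 and 3 low. The log2 fold change was -0.36 (SE 1.01, edgeR adjusted p = 0.99), with 2 SE either side spanning -2.38 to 1.66, and it turned to 0.27 without chow replicate 2. At 12 to 143 counts per library this range leaves large differences in either direction undetectable.

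Cd83, a marker of mature antigen-presenting cells whose product stabilises MHC class II and CD86 at the surface, was at 37.1, 75.1, 88.5 and 47.2 CPM in the chow libraries against 54.0, 78.5, 109 and 32.1 CPM in the HFD libraries. The highest and the lowest of the 8 libraries were both HFD libraries, replicates 7 and 8. The means were 62.0 ± 23.9 and 68.5 ± 33.2 CPM (SD, n = 4), which gave a log2 difference of 0.14 (SE 0.44, edgeR adjusted p = 0.99) that turned to -0.18 without HFD replicate 7.

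Markers of conventional dendritic cells, which express Cd83 and Cd274 strongly, varied between the libraries too. Of 12 such markers 11 had counts in at least 1 library and 5 passed the filter, and their sum was 84.7, 167, 112 and 69.1 CPM in chow and 68.7, 110, 136 and 31.3 CPM in HFD. HFD replicate 8 was lowest both for Cd83 and for this sum. Clec9a carried much of the sum in chow, at 49.6, 122, 76.3 and 38.9 CPM, and less of it in HFD, at 27.2, 26.6, 32.7 and 11.8 CPM. Other markers went the other way. Zbtb46 was at 18.4, 0, 1.04 and 0.944 CPM in chow and 16.7, 9.90, 29.9 and 5.42 CPM in HFD. Cd209a was at 4.72, 0, 0.207 and 1.89 CPM in chow and 2.98, 17.4, 18.3 and 0 CPM in HFD. The sum, also used below as a covariate, thus mixes markers with opposite directions. The gate was on CD11b and F4/80 and used none of these 12 markers. Of the markers of mature dendritic cells in the list, Ccr7 was at 0 in all 8 libraries, Cacnb3 at 0 in 6 and Fscn1 at 0 in 5. With the dendritic cell sum as a covariate the log2 fold changes were 0.40 (SE 0.41) for Cd83 and 1.24 (SE 0.63) for Cd274, with edgeR adjusted p = 0.998 for both. With the stellate cell and fibroblast sum, whose mean was higher in HFD, they were -0.66 (SE 0.63) and 1.57 (SE 1.12), with edgeR adjusted p = 0.98 for both. The part of dendritic cell RNA in the levels of Cd83 and Cd274 was not tested.

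**Figure D4:**
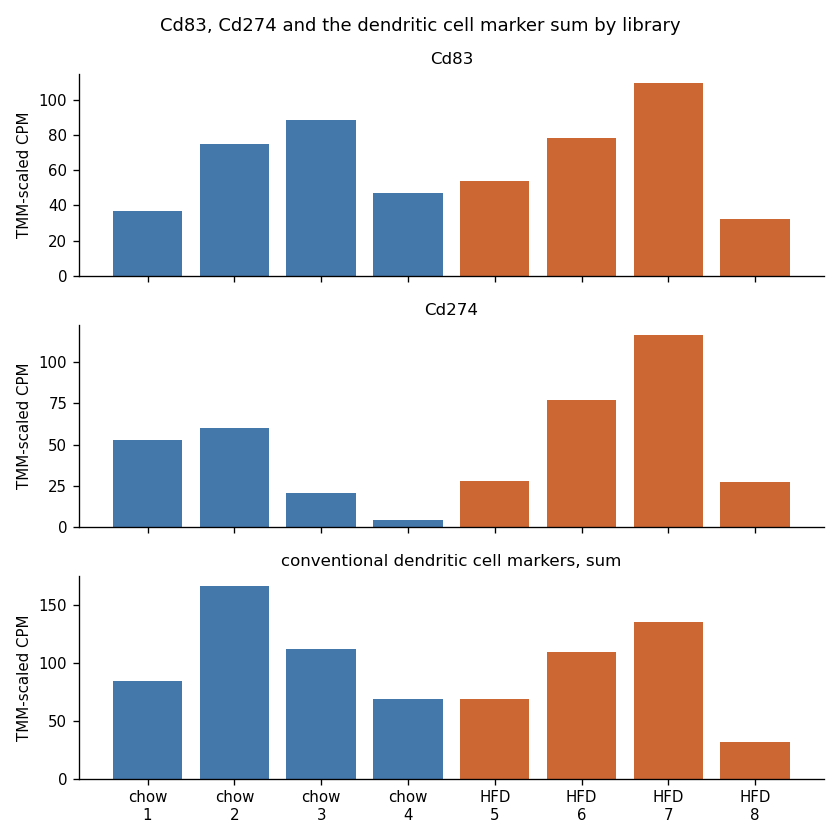
TMM-scaled CPM of Cd83, of Cd274 and of the summed conventional dendritic cell markers in the 8 libraries (blue chow, orange HFD). HFD replicate 7 is high in all 3 panels (109, 117 and 136 CPM) and HFD replicate 8 is lowest for Cd83 and for the marker sum (32.1 and 31.3 CPM).

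By the similarity of its centred log2 levels over the 8 libraries, Cd274 was nearest to Mospd3, Ighd and Invs, with root mean square differences of 0.54, 0.56 and 0.56 on the log2 scale against a median of 1.62 over all tested genes. Ighd encodes the heavy chain of immunoglobulin D. It was at 0.472 CPM in chow replicate 4, where Cd274 was also lowest, and between 3.32 and 16.9 CPM elsewhere.

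Cd48, a SLAM-family ligand of CD2 and CD244, was at 87.8, 69.2, 102 and 95.3 CPM in the chow libraries against 71.3, 89.3, 126 and 77.3 CPM in the HFD libraries. HFD replicate 7 was above every chow library and the other 3 HFD libraries were inside the chow range. With means of 88.6 ± 14.2 and 90.9 ± 24.4 CPM (SD, n = 4) it had the smallest difference of the tested members, a log2 fold change of 0.04 (SE 0.33, edgeR adjusted p = 0.99), with 2 SE either side spanning -0.62 to 0.70. It turned to -0.16 without HFD replicate 7 and to -0.06 without chow replicate 2. The gene model Gm37010 lies inside Cd48 on the same strand without sharing exons and had 971 counts of its own over the 8 libraries. The Cd48 values were all whole numbers. Whether any reads counted for Gm37010 came from Cd48 transcripts was not tested.

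Havcr2 encodes the inhibitory receptor TIM-3 and is known from resident macrophages and microglia as well as exhausted T cells. Its log2 fold change had the smallest SE of the tested members, although its chow libraries were widely spread. It was at 485, 445, 884 and 509.5 CPM in the chow libraries against 583, 585, 398 and 645 CPM in the HFD libraries. Chow replicate 3 stood above the other 7 libraries, and HFD replicate 7, which was highest for Cd274, Cd83 and Cd48, was the lowest for Havcr2. The means were 581 ± 204 and 553 ± 107 CPM (SD, n = 4), with a log2 fold change of -0.07 (SE 0.22, edgeR adjusted p = 0.99) and 2 SE either side spanning -0.50 to 0.36. The direction depended on chow replicate 3, without which the log2 fold change was 0.20 (SE 0.20), on HFD replicate 7, without which it was 0.06 (SE 0.23), and on the scaling, since it was 0.0095 with library totals. Only 4.70% of tested genes had a coefficient of biological variation at or below that of Havcr2, 28.8%.

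Cd200r1, the inhibitory receptor through which CD200 on neighbouring cells restrains macrophages, showed the widest gap between the diets, although it was not called. It had 0, 2, 4 and 2 counts in chow, which is 0 to 0.83 CPM, and 101, 1, 31 and 41 counts in HFD, which is 20.1, 0.174, 6.53 and 8.23 CPM. HFD replicates 5, 7 and 8 were above every chow library and HFD replicate 6 was inside the chow range. The mean of HFD was 21.7 times that of chow, 8.75 ± 8.30 against 0.403 ± 0.345 CPM (SD, n = 4). The chow mean rests on 8 counts in total, close to the limit of detection, so the size of this ratio is poorly determined. Fitted without the filter, the log2 fold change was 4.36 (SE 1.88, edgeR adjusted p = 0.43). Its unadjusted value was under 0.05, as it was for 11.6% of genes in that fit. DESeq2 without the filter gave 4.44 (SE 1.38, adjusted p = 0.089). Without HFD replicate 5 the edgeR value was 3.55 (SE 2.27), and over the 16 alternatives to the fit without a filter it ran from 3.16 to 4.93, with adjusted p from 0.089 to 0.78. The lowest value, 3.16 (SE 2.03), came with the stellate cell and fibroblast sum as a covariate, whose part in the Cd200r1 counts was not tested. Of the other Cd200r genes, Cd200r2 and Cd200r3 had 0 counts in all 8 libraries. Cd200r4 had 27 counts, 20 of them in HFD replicate 5, the library in which Cd200r1 was also highest. The Cd200r1 values were whole numbers in all 8 libraries. How reads that match several of these genes were counted is not stated.

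**Figure D5:**
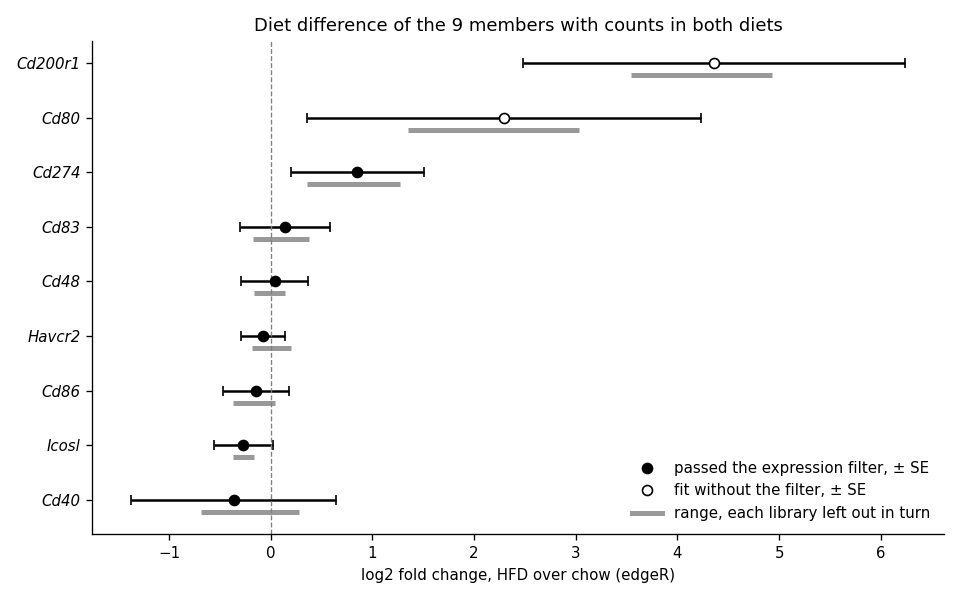
Log2 fold change (HFD over chow) with SE for the 9 members with counts in both diets; open circles come from the fit without the filter and grey bars give the range with each library left out in turn. Cd200r1 is farthest from 0 at 4.36, and the bars of 5 members, Cd83, Cd48, Havcr2, Cd86 and Cd40, cross 0.

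Other genes of these pathways were read from 4 lists of 92 genes, of which 59 passed the filter. EdgeR called 0 of them (0% of all genes tested). Of the 59, 3 (Cd33, Stat6 and Nfkb1) had an unadjusted edgeR p under 0.05, near the share of 5.35% over all genes tested. Without the filter, by DESeq2 and by limma-voom 0 were called. Among 21 other co-stimulatory ligands and partners, 10 were tested, 5 higher and 5 lower in HFD, with a median log2 fold change of -0.07. Cd47, the signal against engulfment, was the most abundant of the 4 named here by the smallest p at 480 ± 58.2 CPM for chow and 539 ± 47.5 CPM for HFD (mean ± SD, n = 4). Lgals9, a ligand of TIM-3, was at 117 ± 23.6 and 91.7 ± 33.8 CPM. Sema4a, whose product also binds T cells, was at 43.1 ± 15.3 and 22.7 ± 7.80 CPM, and Icam1, the adhesion partner of LFA-1, at 35.6 ± 29.3 and 21.9 ± 8.55 CPM.

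Of 18 counter-receptors known from lymphocytes 7 had 0 counts in all 8 libraries and 3 were tested, 2 higher and 1 lower in HFD. Itgal, the LFA-1 subunit that macrophages also carry, was at 92.6 ± 12.9 CPM for chow and 62.9 ± 13.5 CPM for HFD (mean ± SD, n = 4), a log2 fold change of -0.56 (SE 0.34, edgeR adjusted p = 0.99). Cd244a, the receptor for CD48, was at 34.9 ± 15.7 and 36.9 ± 18.6 CPM, so both partners of this pair were present. Cd27 was at 1.83 ± 3.06 and 8.17 ± 5.49 CPM.

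Of 24 other inhibitory and SLAM-family receptors of myeloid cells 18 were tested, 6 higher and 12 lower in HFD, with a median log2 fold change of -0.06. Cd33, a sialic acid receptor, was at 1352, 852, 1219 and 1078 CPM in the chow libraries against 630, 1022, 741 and 1044 CPM in the HFD libraries, with HFD replicates 5 and 7 below every chow library. Its log2 fold change was -0.39 (SE 0.18, edgeR adjusted p = 0.91). Slamf9 was at 198 ± 58.9 and 138 ± 59.9 CPM (SD, n = 4), and Siglece, another sialic acid receptor, at 111 ± 39.6 and 75.3 ± 18.9 CPM. Cd300lf went the other way, at 28.0 ± 10.3 and 51.2 ± 28.2 CPM.

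Of 29 CD40 adaptors, transcription factors and regulators of ligand induction 28 were tested, 9 higher and 19 lower in HFD, with a median log2 fold change of -0.21 against -0.02 over all genes. Nfkb1, the gene for the p50 subunit of NF-kB, was at 177, 169, 210 and 210.3 CPM in the chow libraries against 189, 114, 122 and 86.6 CPM in the HFD libraries. HFD replicates 6, 7 and 8 were below every chow library and HFD replicate 5 was within the chow range, a log2 fold change of -0.58 (SE 0.28, edgeR adjusted p = 0.91). Stat6, which relays interleukin-4 signals, was at 133 ± 73.7 and 72.9 ± 27.7 CPM (SD, n = 4), with 241 CPM in chow replicate 1, a log2 fold change of -0.87 (SE 0.40, edgeR adjusted p = 0.89). Irf4, a transcription factor of alternative activation, was at 21.3 ± 15.2 and 51.8 ± 13.9 CPM, which gave a log2 difference of 1.28 (SE 0.64, edgeR adjusted p = 0.94). Marchf1, whose ubiquitin ligase removes CD86 and MHC class II from the surface, was at 222 ± 53.9 and 300 ± 20.5 CPM, which gave a log2 difference of 0.44 (SE 0.22, edgeR adjusted p = 0.94).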

How the data were processed

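RNA sequencing covered 8 libraries, 4 per diet. Per the submitters' processing notes, the tools were FastQC, Trim Galore and STAR and the build GRCm38. Not given in the sources used here: tool versions and the read counter. Values in the deposited file are expected counts per Ensembl gene, unscaled; 7.66% to 8.32% of the values above 0 in each library were not whole, and values were rounded before testing. The 80 values of the members were all whole. Coordinates and exon lengths came from GENCODE M21 (GRCm38), which held 48058 of the 48440 identifiers, and promoter sequences from RefSeq (GRCm38.p6).

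Genes were tested with edgeR (version 4.0.16; TMM, filterByExpr, robust quasi-likelihood fit, diet as the only term, Benjamini-Hochberg adjustment over all 10129 genes, two-sided); the tests were checked on simulated data. SE is the absolute log2 fold change divided by the square root of F. Alternatives were other scalings, filters and tools (DESeq2 version 1.42.0, limma version 3.58.1), each library left out, and covariates for 2 cell types; for the 3 filtered members, the further settings of the fit without the filter were added after seeing the data. The members and lists were chosen with earlier results of these data known. Named genes were all members, the 4 genes with the smallest p of each list, 3 genes most like the member with the smallest p, and 4 sort markers. The lists held 11 sets of cell type markers. The plasmacytoid dendritic cell, B cell, NK cell, neutrophil and monocyte, endothelial and endocrine marker sums are given with the other observations. All 28 pairs of libraries differed by more than sampling noise, with a chi-square per degree of freedom of at least 36.3.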

Additional observations from a re-analysis of the deposited data

Results flagged for a closer look

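Among 43 sets of 4 libraries, 5 held a library far from its group by Dixon's test at the 95% level. For normally distributed values chance flags about 1 of 20, a rate that does not hold for sets made up mostly of 0 counts. Havcr2 in chow was flagged because replicate 3 was at 884 CPM and the other 3 at 445 to 509.5 CPM, a gap of 0.853 of the range. Pdcd1lg2 in HFD was flagged because its counts were all in replicate 6 (1.56 CPM), a gap of 1.0 of the range. The NK cell marker sum was flagged in chow, with 1.72 CPM in replicate 2 and 0 in the others, and in HFD, with 4.42 CPM in replicate 8 and 0 in the others, a gap of 1.0 in both. Where all libraries but 1 are at 0 the gap is 1.0 whatever the value, so the Pdcd1lg2 and NK cell flags were set by 0 counts. The acinar cell marker sum in HFD was flagged because replicate 7 was at 969 CPM against 31.3 to 70.7 CPM in the others, a gap of 0.958. In chow this sum was also high in replicates 3 and 4, at 924 and 1985 CPM, against 0.225 and 1.72 CPM in replicates 1 and 2.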

How the results depend on the processing

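The count of 0 called members and of 0 called pathway genes held under all 18 alternatives. The count of all genes called was 0 in the reported fit, 45 with no filter, 28 with DESeq2, 1 with limma-voom, 2 with the dendritic cell covariate, and 0 to 11 with each library left out (11 without HFD replicate 8). No member's log2 fold change passed the threshold in any alternative, but 15 values changed sign. With the stellate and fibroblast covariate they were 0.054 for Cd86, 0.023 for Icosl, -0.66 for Cd83, -0.015 for Cd48 and -0.072 for Cd80 (without the filter). With library totals Havcr2 was at 0.0095. With each library left out, Cd86 ranged from -0.37 to 0.045, Cd40 from -0.69 to 0.27, Cd83 from -0.18 to 0.38, Cd48 from -0.16 to 0.14 and Havcr2 from -0.18 to 0.20; the changes of sign came without chow replicate 1 (0.045 for Cd86, -0.040 for Cd83), chow replicate 2 (0.27 for Cd40, -0.06 for Cd48), chow replicate 3 (0.20 for Havcr2) and HFD replicate 7 (0.02 for Cd86, -0.18 for Cd83, -0.16 for Cd48, 0.06 for Havcr2). The cause was not tested. The log2 ratio of Cd274 to Pdcd1lg2 per kilobase in chow was 6.95 ± 1.92 with 0.5 counts added and 4.98 with 2 added, a shift set by the 0 counts of Pdcd1lg2. No paired analysis was possible because the replicate numbers of the 2 diets do not overlap. Depth limits Cd80, Pdcd1lg2, Cd200r1 and Cd40 most.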

Other observations

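Several partners of the members outside the genes named by rule were singled out after their values were seen. Cd28, the receptor of CD80 and CD86, was at 0 in all 4 chow libraries and at 6.95, 13.2, 0.843 and 0 CPM in HFD, while the T cell genes Cd3e, Cd3g, Lck and Themis were at 0 in all 8 libraries. The TNF-family ligand gene Tnfsf18 had its counts in chow replicate 1 alone (19.1 CPM), and Tnfsf9 in chow replicate 4 alone (5.90 CPM). Vsir, which encodes the checkpoint ligand VISTA, averaged 188 ± 37.4 CPM (chow) and 170 ± 31.7 CPM (HFD; SD, n = 4), and Sirpa, the receptor of CD47, at 385 ± 71.5 and 381 ± 65.9 CPM.

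Of the other cell type lists, the B cell sum was 250.4 to 448 CPM in chow and 211 to 300.2 CPM in HFD, nearly all of it Ighm. The plasmacytoid dendritic cell sum was 549 to 717 CPM in chow and 460 to 566 CPM in HFD. Most of it was Tcf4 (328 to 448 CPM) and Siglech (91.0 to 219 CPM). Its markers Ly6d and Cox6a2 were at 0 in 8 and 7 libraries. The neutrophil and monocyte sum was 725 to 1121 and 773 to 1162 CPM, with 6 of its 8 markers at 0 in all libraries. Most of that sum was Ccr2, at 632 to 1072 CPM. The T cell sum was 10.8 to 48.3 and 9.84 to 43.0 CPM, nearly all of it Cd4. The endothelial sum was 0 to 7.65 and 0.201 to 13.7 CPM, the endocrine sum 436 to 1731 and 878 to 1758 CPM, and the NK cell sum at most 4.42 CPM.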
